A study of Arabidopsis thaliana with 12 samples.

Results

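The genes described here act in mitosis and cytokinesis: the B-type and A-type cyclins, their cyclin-dependent kinases with the CKS adaptors, the Aurora kinases and spindle proteins, the spindle checkpoint and centromere proteins, the proteins of the division plane, and the MYB3R transcription factors. They were chosen by name, as a list of 39 loci, each with 1 probe set on the array. Of these, 33 are in the table of 21428 loci tested. The other 6 (CYCB1;2, CYCB2;3, CDKB1;1, CDKB1;2, CDC20.1 and CDC20.2) are not analysed here. The measured members are 7 of 9 B-type cyclins, all 6 A-type cyclins, 5 of 7 kinases and CKS proteins, all 6 Aurora kinases and spindle proteins, 2 of 4 checkpoint and centromere genes, all 4 cytokinesis genes and all 3 MYB3R factors. No measured member shares its values with another locus.

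The tissue is the third leaf of 9-day-old Arabidopsis thaliana seedlings of the Col-0 ecotype, and all 4 groups carry 35S::gai-GR. The gai protein is a DELLA, a nuclear repressor of gibberellin responses, and lacks the stretch through which gibberellin triggers its breakdown. Fused to the glucocorticoid receptor (GR) domain, it is held outside the nucleus until dexamethasone is given. Seedlings were moved to plates with 5 µM dexamethasone (DEX) or with DMSO alone (mock) and harvested after 1 h or 4 h, giving mock 1 h, DEX 1 h, mock 4 h and DEX 4 h groups of 3 arrays each. The series description assigns the replicates to 3 independent experiments, with leaves of many plants pooled. The 35S promoter drives the fusion throughout the plant, and the whole leaf was profiled. Plants without the transgene under DEX are not analysed here, so the comparisons measure DEX and gai-GR together. In such bulk samples, fewer cells of a kind and less RNA per cell cannot be told apart.

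In a dividing plant cell, CDK kinases bound to A-type and then B-type cyclins drive entry into mitosis, and most of these genes are transcribed in a wave around G2 and M phase. MYB3R factors bind the promoters of many such genes, some as activators and some as repressors. Aurora kinases, TPX2 and kinesins shape the spindle, and the phragmoplast, a plant-specific array of microtubules, then lays down the new cell wall. Young leaves grow first through such divisions, and DELLA proteins are known to restrain leaf growth.

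Values are log2 expression after RMA, as deposited. Across arrays, the median over all loci lay between 7.65 and 7.78, except in mock 4 h replicate 2, where it was 7.48. In that array the members sat at a median of -0.15 from their group means, the S phase genes described below at -0.22 and all loci at -0.10, so the counts and medians that it moves most are given without it too. The 5 measured leaf markers (light-harvesting and photosystem I genes) averaged between 12.7 and 13.8. The 6 shoot meristem markers averaged between 5.4 and 6.6, near the lower quartile of the arrays (5.79 to 5.94), and the 5 root markers between 5.5 and 10.0, with SCR the highest. KNAT1, a meristem homeobox gene, was the marker of other tissue that moved most with a group at 4 h: it read 7.11, 7.11 and 7.50 in mock and 5.99, 6.14 and 5.60 in DEX.

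Members were measured with a median standard deviation within groups of 0.126, against 0.143 over all loci. The steadiest had 0.0755 and the least steady, CDKB2;2, had 0.236. CYCA2;1 (AT5G25380_at), an A2 cyclin, was the only member that stayed below the highest lower quartile in every array, at 5.54 to 5.93, so its comparisons are close to the floor of the measurement. Differences were tested with limma over all 21428 loci and called at a Benjamini-Hochberg adjusted p under 0.05.

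**Figure D1:**
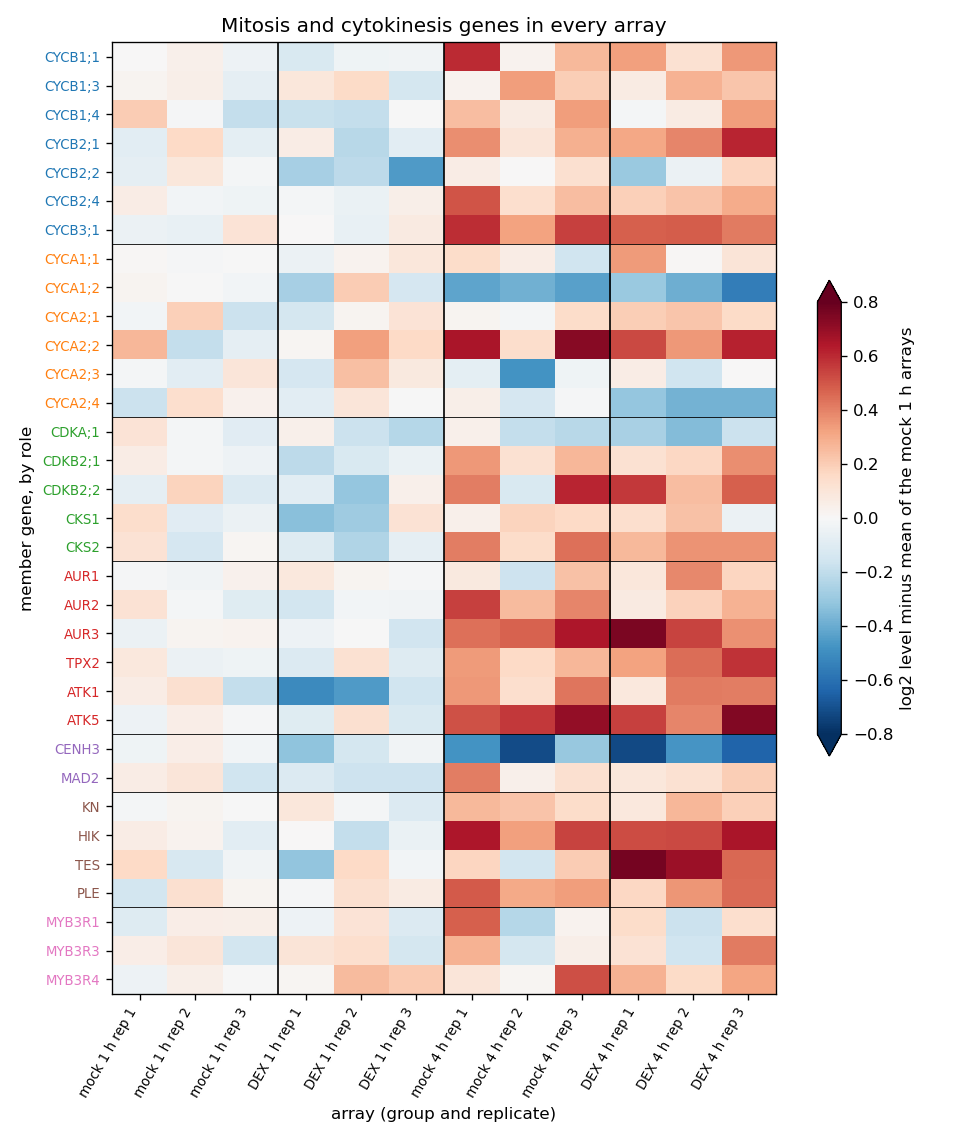
Heat map of the 33 measured genes (rows, grouped by role) in the 12 arrays (columns, grouped by treatment and time); colour gives the log2 level minus the gene's mean in the mock 1 h arrays. The 1 h columns are pale and the 4 h columns of both treatments are mostly red, with CYCA1;2 and CENH3 blue at 4 h.

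After 1 h of DEX, mitotic genes stood close to their mock levels. limma called 0 of 33 members, against 0.714% of all loci, and the smallest adjusted p was 0.555. At an unadjusted p under 0.05 there were 2 members, both with lower means in DEX, against 4.98% of all loci. The median log2 fold change was -0.06, with members from -0.37 to 0.17, and the 95% interval lay within 0.5 of 0 (a 1.41-fold change) for 30 of 33 and within 1 for all 33.

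The larger difference was that of ATK1 (AT4G21270_at), a minus-end kinesin of the spindle, which read 8.39, 8.45 and 8.13 in the mock 1 h arrays and 7.82, 7.87 and 8.17 in the DEX 1 h arrays, a log2 difference of -0.37 (SE 0.13). DEX replicate 3 lay inside the mock range. The B2 cyclin CYCB2;2 (AT4G35620_at) read 9.19, 9.35 and 9.24 in mock and 9.00, 9.05 and 8.81 in DEX, with no overlap, a difference of -0.31 (SE 0.11) with a limma adjusted p of 0.638. At 4 h its groups overlapped, with 9.32, 9.27 and 9.39 in mock and 8.97, 9.22 and 9.43 in DEX.

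After 4 h of DEX, 1 of 33 members (3.03%) was called, against 7.90% of all loci, of which 5.35% rose and 2.55% fell. That balance over all loci was not stable: 4.70% rose and 4.73% fell without mock 4 h replicate 2, 4.81% and 4.89% with renewed quantile normalization, and 4.05% and 6.07% with each array centred on its median. The member called was TES (AT3G43210_at, TETRASPORE), a kinesin of the phragmoplast known for its part in the cytokinesis of pollen mother cells. The median over members was -0.01 and the range -0.32 to 0.56, and the 95% interval lay within 0.5 of 0 for 31 of 33.

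TES read 8.01, 7.70 and 8.05 in the mock 4 h arrays and 8.61, 8.53 and 8.30 in the DEX 4 h arrays. Every DEX array lay above every mock array, and TES rose by 0.56 on the log2 scale (SE 0.14, 95% interval 0.27 to 0.86, limma adjusted p = 0.0196), or 1.48-fold. At 1 h it had read 8.00, 7.72 and 7.81 in mock and 7.53, 8.00 and 7.82 in DEX, a difference of -0.06. The call at 4 h ended without mock 4 h replicate 2, DEX 4 h replicate 1 or DEX 4 h replicate 2, with a difference of 0.45 to 0.65 and a highest limma adjusted p of 0.0862 over the 12 fits that each left out 1 array. It also ended when replicate 1, 2 or 3 was left out of all groups at once. The differences were then 0.54, 0.43 and 0.71, with limma adjusted p = 0.101, 0.127 and 0.0579. HIK (AT1G18370_at, HINKEL), the closely related phragmoplast kinesin, differed by 0.06 (SE 0.10).

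Next in order of p came CYCA2;4 (AT1G80370_at), an A2 cyclin; in Arabidopsis A2 cyclins are known to hold back the switch from division to endoreduplication. It read 10.12, 9.94 and 10.06 in mock and 9.77, 9.70 and 9.70 in DEX at 4 h, without overlap. The difference of -0.32 (SE 0.10) missed the threshold, with a limma adjusted p of 0.0606. It passed when the arrays were quantile normalized again (-0.41, limma adjusted p = 0.0095), when each was centred on its median (-0.43, adjusted p = 0.0104) and without mock 4 h replicate 2 (-0.37, adjusted p = 0.0336). The other 5 A-type cyclins differed by -0.01 to 0.16 at 4 h. CYCA1;1 (AT1G44110_at), a G2 and M phase cyclin, differed by 0.14 (SE 0.10).

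The B-type cyclins, the partners of CDKs at entry into mitosis, differed by -0.12 to 0.19 at 4 h. Of these 0 of 7 was called, against 7.90% of all loci. CYCB1;1 (AT4G37490_at), widely used as a marker of cells in G2 and M phase, read 10.48, 9.91 and 10.15 in mock and 10.22, 10.01 and 10.23 in DEX, the DEX arrays lying within the mock range. Its log2 difference was -0.03 (SE 0.12). CYCB1;3 (AT3G11520_at) and CYCB2;1 (AT2G17620_at), of the same family, differed by 0.00 (SE 0.11) and 0.19 (SE 0.12).

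Among the kinases, CDKA;1 (AT3G48750_at), the main CDK of the plant cycle, differed by -0.14 (SE 0.11) at 4 h, CDKB2;1 by -0.03 (SE 0.10) and CDKB2;2 by 0.13 (SE 0.16). All 5 kinases and CKS proteins had lower means in DEX at 1 h, between -0.17 and -0.12. None of them was called, against 0.714% of all loci. CKS1 (AT2G27960_at), a small CDK-binding adaptor, read 10.83, 10.60 and 10.65 in mock and 10.36, 10.41 and 10.81 in DEX at 1 h, so the groups overlapped through DEX replicate 3.

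The Aurora kinases and spindle proteins differed by -0.22 to 0.19 at 4 h, with 0 of 6 called, against 7.90% of all loci. The lowest was AUR2 (AT2G25880_at), an Aurora kinase of the spindle and cell plate, which read 10.91, 10.61 and 10.75 in mock and 10.43, 10.54 and 10.64 in DEX. The groups overlapped slightly (-0.22, SE 0.10, limma adjusted p = 0.239). With each array centred on its median the difference was -0.33 and the adjusted p 0.0433. AUR1 (AT4G32830_at), the kinase most similar to it, read 10.87, 10.62 and 11.02 in mock and 10.88, 11.17 and 10.96 in DEX, a difference of 0.17 (SE 0.11). TPX2 (AT1G03780_at), which nucleates spindle microtubules and binds Aurora kinases, read 9.54, 9.36 and 9.47 in mock and 9.52, 9.65 and 9.78 in DEX, a difference of 0.19 (SE 0.10).

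MAD2 (AT3G25980_at), a spindle checkpoint protein, read 11.00, 11.03 and 10.77 in mock and 10.82, 10.77 and 10.77 in DEX at 1 h. The difference was -0.15 (SE 0.11), and at 4 h it was -0.06. KN (AT1G08560_at, KNOLLE), the syntaxin of the cell plate, had the narrowest interval of the cytokinesis genes, with a difference of -0.03 (SE 0.09) at 4 h.

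**Figure D2:**
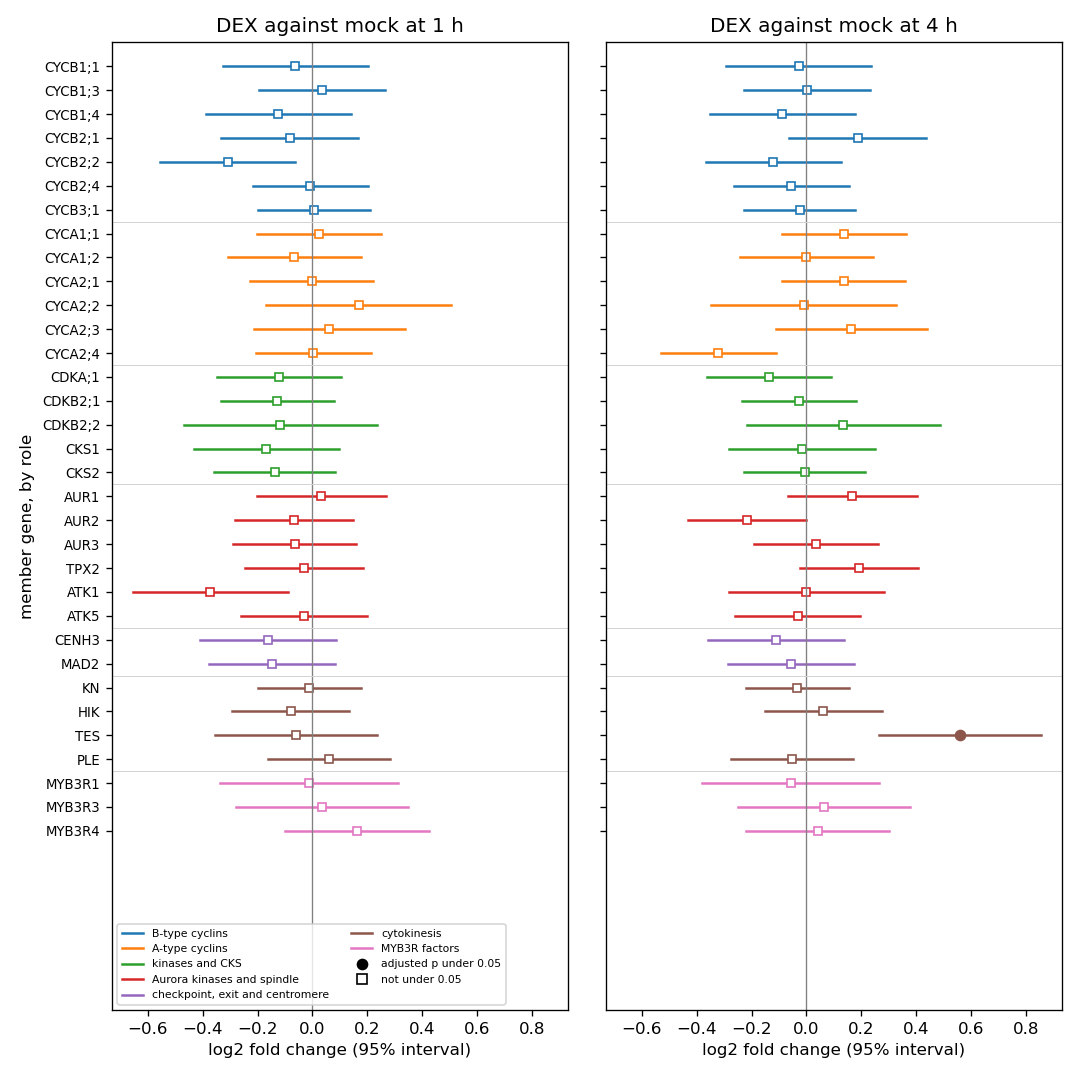
Log2 fold change of DEX against mock for each of the 33 genes (rows, coloured by role) at 1 h (left) and 4 h (right), with the 95% interval from limma as a bar; filled circles mark an adjusted p under 0.05. TES at 4 h, at 0.56, is the only filled circle.

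Centring each array on its median moved the median of all loci at 4 h from 0.02 to -0.09 and that of the members from -0.01 to -0.12. Relative to all loci the members were at -0.03 under both, a difference that centring cannot change, since it shifts all loci of an array equally. Without mock 4 h replicate 2 that difference was -0.06, and with renewed quantile normalization -0.07.

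The DEX responses at 1 h and 4 h share no array, and their difference was tested by the interaction term. limma called 0 of 33 members, against 1.28% of all loci, and 2 passed at an unadjusted p under 0.05, against 11.5% of all loci. These were TES, at 0.62 (limma adjusted p = 0.176), and CYCA2;4, at -0.32 (adjusted p = 0.375). The median over members was 0.07, turning to -0.01 with renewed quantile normalization and to -0.03 with centring. The 95% interval lay within 0.5 of 0 for 23 of 33, so this comparison was less precise than either response.

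Genes of DNA replication and S phase, a list of 26 with 22 measured, give the step of the cycle before. None was called at 1 h, against 0.714% of all loci, with a median of -0.07. At an unadjusted p under 0.05 (limma) it was also 0 of 22, against 4.98% of all loci. At 4 h 14 of 22 (63.6%) fell and 0 rose, against 2.55% and 5.35% of all loci, with a median of -0.55. Without mock 4 h replicate 2 it was 20 of 22 and -0.66, with 4.73% of all loci falling. CYCA3;1, an S phase cyclin, fell from 9.58, 9.34 and 9.68 in mock to 8.70, 8.84 and 8.60 in DEX, a log2 difference of -0.82 (SE 0.10, limma adjusted p = 0.000126). CDT1A, which licenses replication origins, fell by 0.83, PCNA1, the sliding clamp of DNA polymerase, by 0.69, and ORC6, of the origin recognition complex, by 0.69. MCM7, of the replicative helicase, fell by 0.63 and TSO2, a ribonucleotide reductase subunit, by 0.56. These 6 were taken by their p in this same comparison, and for each the DEX arrays lay below the mock arrays. Over the S phase list the groups did not overlap for 15 of 22 genes, against 4363 of 21428 loci in either direction. The difference between the lists was not tested.

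A list of 44 other genes of mitosis and cytokinesis, with 39 measured, had a median of 0.00 at 4 h, or -0.10 without mock 4 h replicate 2. It held 0 calls at 1 h, against 0.714% of all loci, and 2 of 39 at an unadjusted p under 0.05, against 4.98%. At 4 h it held 2 of 39 (5.13%), both lower, against 7.90% of all loci called and 2.55% falling. WEE1, a kinase that inhibits CDKs and is active when replication stalls, read 9.00, 8.75 and 9.23 in mock and 8.19, 8.07 and 8.17 in DEX, and fell by 0.85 (limma adjusted p = 0.000233). ANP1, a MAP kinase kinase kinase of the cascade that expands the phragmoplast, fell by 0.62 (limma adjusted p = 0.0118), from 6.94, 7.01 and 6.69 to 6.21, 6.01 and 6.54. SMC4, a condensin subunit, differed by -0.35 (adjusted p = 0.0772). MPK4, the kinase at the end of that cascade, differed by -0.23, NPSN11, a cell plate SNARE, by -0.27 and MAP65-1, which bundles microtubules, by 0.23.

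More members were called from 1 h to 4 h than between DEX and mock. On mock plates 6 of 33 (18.2%) rose and 2 (6.06%) fell, against 3.64% and 5.64% of all loci, and on DEX plates 11 (33.3%) rose and 3 (9.09%) fell, against 10.4% and 8.98%. The shares over all loci moved with the arrays and the scaling. On mock they were 6.83% rising and 4.55% falling without mock 4 h replicate 2, where 11 members rose and 2 fell, and on DEX 8.22% and 16.9% with each array centred on its median, where 10 rose and 3 fell. With renewed quantile normalization they were 5.59% and 5.64% on mock, where 13 members rose and 2 fell, and 10.5% and 11.0% on DEX, where 14 rose and 3 fell. The median log2 change was 0.21 on mock and 0.25 on DEX, while the median over all loci was -0.04 and -0.02. In both series 28 of 33 members lay above 0. Time since transfer and the hour of harvest, which the labels do not give, cannot be told apart.

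The mock and DEX series share no array, and the mean change had the same sign in both for all 33 members, and for 69.9% of all loci. The series had 6 calls in common, 4 rising (CYCB3;1, AUR3, ATK5 and HIK) and 2 falling (CYCA1;2 and CENH3), which is 18.2% of the members, against 5.89% of all loci. They make up 75% of the mock calls and 42.9% of the DEX calls of the members, and the calls in common over all loci 63.5% and 30.4%. Of all members, 16 (48.5%) were called in at least 1 of the 5 comparisons and 17 in none, against 25% of all loci called in at least 1.

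**Figure D3:**
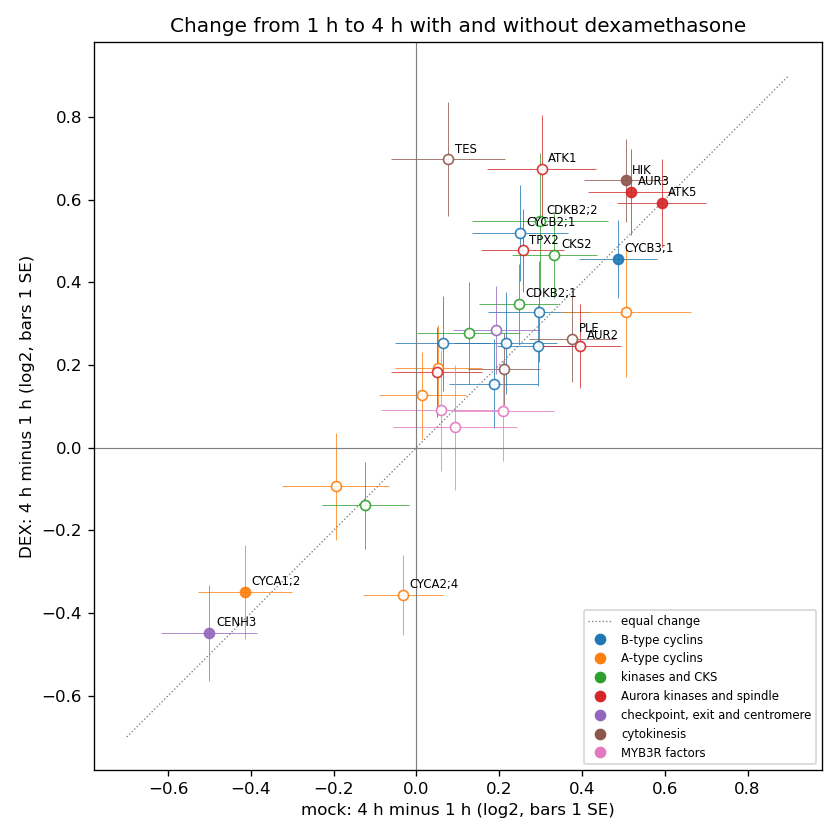
Log2 change from 1 h to 4 h on mock plates (horizontal) and DEX plates (vertical) for each of the 33 genes, with bars of 1 SE, colours for roles and a dotted line of equal change; genes called in either series are labelled and those called in both are filled. Most genes lie to the upper right of 0, and TES, ATK1 and CYCA2;4 lie farthest from the dotted line.

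The number of calls on mock plates depended on single arrays. It was 13, with 11 rising, without mock 4 h replicate 2, the array with the low median. There the calls over all loci went from 1990 to 2439. The members gave 4 when replicate 2 or replicate 3 of mock 1 h was dropped. They gave 5 when replicate 1 or replicate 3 of mock 4 h was dropped. On DEX plates they gave between 10 and 17 calls when any 1 of the 12 arrays was left out. The 17 came without mock 4 h replicate 2, where the calls over all loci went from 4160 to 5760. For the other arrays left out, the calls over all loci are not given here. CYCB3;1, AUR3, ATK5 and HIK kept their mock calls in each of these 12 fits. All 4 lost them when replicate 1 or replicate 3 was left out of all groups at once, with highest limma adjusted p-values of 0.163, 0.0848, 0.0876 and 0.127.

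The kinesin HIK, which drives expansion of the phragmoplast, read 10.50, 10.47 and 10.36 in mock at 1 h and 11.09, 10.78 and 10.99 in mock at 4 h. On DEX it read 10.45, 10.26 and 10.39 and then 10.97, 10.97 and 11.10. All 4 h arrays lay above all 1 h arrays, and the gene rose by 0.51 on mock (SE 0.10, limma adjusted p = 0.00624) and by 0.65 on DEX (SE 0.10, adjusted p = 0.000493).

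The other cytokinesis genes gave 1 rising call on each kind of plate, while 3.64% of all loci rose on mock and 10.4% on DEX. TES rose by 0.70 on DEX (limma adjusted p = 0.00284) and differed by 0.08 on mock (SE 0.14). PLE (AT5G51600_at, PLEIADE), a MAP65 protein that bundles microtubules at the middle of the phragmoplast, rose on mock from 9.62, 9.89 and 9.78 to 10.25, 10.07 and 10.10, by 0.38 (limma adjusted p = 0.036). On DEX it went from 9.75, 9.89 and 9.83 to 9.93, 10.12 and 10.21, by 0.26 (adjusted p = 0.0916). The mock call of PLE ended without any 1 of the mock arrays other than mock 4 h replicate 2, and without DEX 1 h replicate 3. It also ended when only the mock arrays were fitted (limma adjusted p = 0.0856). KN differed by 0.21 and 0.19, without a call.

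Among the spindle genes ATK5 (AT4G05190_at), a minus-end kinesin, read 9.75, 9.84 and 9.78 in mock at 1 h and 10.30, 10.36 and 10.50 at 4 h. Under DEX the levels were 9.69, 9.92 and 9.67 and then 10.34, 10.18 and 10.53. The groups did not overlap in either series, and it rose by 0.59 in both (limma adjusted p = 0.00364 on mock and 0.00155 on DEX). ATK1, its close relative, rose by 0.67 on DEX (limma adjusted p = 0.00266), from the low 1 h values given above to 8.41, 8.74 and 8.73. On mock ATK1 reached 8.67, 8.46 and 8.76, a change of 0.30 (adjusted p = 0.172).

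AUR3 (AT2G45490_at), the Aurora kinase of the centromere, read 9.41, 9.48 and 9.49 and then 9.90, 9.93 and 10.11 on mock. On DEX it read 9.42, 9.46 and 9.31 and then 10.21, 10.00 and 9.83. It rose by 0.52 and by 0.62, limma adjusted p = 0.0074 and 0.000988. AUR2 rose on mock by 0.39 (limma adjusted p = 0.0264), from 10.47, 10.35 and 10.26, and differed on DEX by 0.25 (adjusted p = 0.104), from 10.21, 10.34 and 10.33. The mock call of AUR2 ended when replicate 2 or 3 of mock 1 h, or replicate 1 or 3 of mock 4 h, was dropped, and when only the mock arrays were fitted (limma adjusted p = 0.0802). TPX2 rose on DEX by 0.48 (limma adjusted p = 0.00439), from 9.09, 9.33 and 9.10, and differed on mock by 0.26. AUR1 differed by 0.05 and 0.18, without a call.

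All 7 B-type cyclins had higher means at 4 h in both series. On mock 1 of 7 (14.3%) was called as rising and on DEX 2 (28.6%), against 3.64% and 10.4% of all loci. CYCB3;1 (AT1G16330_at) read 8.64, 8.63 and 8.80 and then 9.28, 9.01 and 9.24 on mock. Its DEX levels were 8.69, 8.63 and 8.76 and then 9.17, 9.18 and 9.11. It rose by 0.49 and 0.46 without overlap, limma adjusted p = 0.00577 and 0.00404. CYCB2;1 rose on DEX by 0.52 (limma adjusted p = 0.00631), from 9.03, 8.75 and 8.88 to 9.28, 9.36 and 9.58. On mock it read 8.89, 9.13 and 8.89 and then 9.34, 9.06 and 9.25, with overlap, and differed by 0.25. CYCB1;1 differed by 0.30 (limma adjusted p = 0.155) and 0.33 (adjusted p = 0.0767).

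The kinases and CKS proteins gave 0 calls on mock, against 3.64% of all loci rising and 5.64% falling. At an unadjusted p under 0.05 (limma) it was 2 of 5, against 24.5% of all loci. On DEX 3 of 5 (60%) rose, against 10.4% of all loci. CDKB2;1 (AT1G76540_at), a CDK present only in plants that peaks in G2 and M phase, read 10.65, 10.58 and 10.55 and then 10.94, 10.72 and 10.86 on mock. The DEX arrays gave 10.38, 10.47 and 10.54 and then 10.71, 10.76 and 10.96, and rose by 0.35 (SE 0.10, limma adjusted p = 0.0211). Its paralog CDKB2;2 (AT1G20930_at) rose on DEX by 0.55 (SE 0.16, limma adjusted p = 0.031), from 10.32, 10.09 and 10.44 to 10.97, 10.65 and 10.88. On mock CDKB2;2 read 10.33, 10.58 and 10.29 and then 10.81, 10.28 and 11.01, where mock 4 h replicate 2 lay just below the lowest 1 h array.

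CKS2 (AT2G27970_at), a CDK-binding adaptor, rose on DEX by 0.47 (limma adjusted p = 0.00596), from 10.93, 10.79 and 10.96 to 11.29, 11.39 and 11.39. On mock it read 11.15, 10.90 and 11.05 and then 11.44, 11.18 and 11.47, a change of 0.33 (adjusted p = 0.0583). CDKA;1, which is transcribed through the whole cycle, differed by -0.12 and -0.14, without a call. The DEX calls of CDKB2;1 ended without DEX 1 h replicate 1, DEX 1 h replicate 2 or DEX 4 h replicate 3, and those of CDKB2;2 without these or without DEX 4 h replicate 1. The call of CDKB2;1 also ended with each array centred on its median (0.26, limma adjusted p = 0.0575).

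The members that fell over time were A-type cyclins and CENH3. CENH3 (AT1G01370_at), the histone H3 variant of centromeres, is loaded in G2 in Arabidopsis. It read 9.60, 9.69 and 9.61 in mock at 1 h and 9.15, 8.91 and 9.33 at 4 h. The DEX arrays gave 9.31, 9.49 and 9.60 and then 8.91, 9.16 and 8.99. All 4 h arrays lay below the 1 h arrays of their series, and the gene fell by 0.50 and by 0.45, limma adjusted p = 0.0162 and 0.0152. The mock call ended without mock 1 h replicate 2 or replicate 3, and the DEX call without DEX 1 h replicate 3 or DEX 4 h replicate 1. MAD2 differed by 0.19 and 0.29, without a call.

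CYCA1;2 (AT1G77390_at, also TAM), known for its role in meiosis, read 7.47, 7.45 and 7.43 and then 7.03, 7.06 and 7.01 on mock. On DEX it read 7.18, 7.65 and 7.31 and then 7.15, 7.06 and 6.89. It fell by 0.41 and 0.35, limma adjusted p = 0.0347 and 0.0436. The mock call ended without any 1 of the mock arrays other than mock 4 h replicate 2, and the DEX call ended in 8 of the 12 fits, with a highest adjusted p of 0.18. Those fits each dropped 1 array of mock 1 h, replicate 2 or 3 of DEX 1 h, replicate 1 of mock 4 h, or replicate 2 or 3 of DEX 4 h. The DEX call also ended with only the DEX arrays fitted, with a variance trend and robust fitting, and with array weights (limma adjusted p = 0.0791, 0.0756 and 0.0603), and the mock call with the variance trend (adjusted p = 0.0586).

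CYCA2;4 fell on DEX by 0.36 (limma adjusted p = 0.02), from 9.99, 10.17 and 10.07 to the values at 4 h given above. On mock it read 9.90, 10.21 and 10.11 at 1 h, and the change to 4 h was -0.03. The DEX call ended without DEX 1 h replicate 2, DEX 4 h replicate 2 or DEX 4 h replicate 3. CYCA2;2 (AT5G11300_at) had the largest positive mean change of the A-type cyclins on mock, 0.51 (SE 0.16), with an adjusted p of 0.0601.

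The MYB3R factors were called in none of the comparisons, and at an unadjusted p under 0.05 there was also 0 of 3 in each, against 4.98% to 33.1% of all loci across the 5 comparisons (20.9% for DEX at 4 h, 24.5% on mock and 33.1% on DEX over time). MYB3R4 (AT5G11510_at), an activator of G2 and M phase genes, read 8.45, 8.53 and 8.48 in mock at 1 h and 8.59, 8.50 and 9.01 at 4 h. On DEX it read 8.51, 8.75 and 8.70 and then 8.77, 8.65 and 8.81, so the times overlapped in both series. MYB3R3 (AT3G09370_at), a repressor of such genes, differed by 0.06 and 0.09, and MYB3R1 (AT4G32730_at), known as activator and repressor, by 0.09 and 0.05 (SE 0.15 each).

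In the list of 39 other genes of mitosis and cytokinesis, 6 (15.4%) rose and 1 fell on mock, against 3.64% and 5.64% of all loci. On DEX 12 (30.8%) rose and 5 (12.8%) fell, against 10.4% and 8.98%. The medians were 0.13 on mock and 0.15 on DEX. Without mock 4 h replicate 2, 10 rose on mock, against 6.83% of all loci. Chosen after their values were seen, POK1, a kinesin of the division plane, rose by 0.87 and 0.71, PAKRP1L, a phragmoplast kinesin, by 0.55 and 0.61, and CCS52B, an activator of the anaphase-promoting complex, by 0.41 and 0.39. SMC3, a cohesin subunit chosen in the same way, rose by 1.15 and 1.38. The genes named here all rose, while the list ran from -0.51 to 1.15 on mock and from -0.96 to 1.38 on DEX.

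The S phase genes ran the other way over the same hours. On mock 9 of 22 (40.9%) fell and 0 rose, against 5.64% and 3.64% of all loci, with a median of -0.30. Without mock 4 h replicate 2 it was 7 of 22 and -0.24, with 4.55% of all loci falling. On DEX 20 of 22 (90.9%) fell and 0 rose, against 8.98% and 10.4% of all loci, with a median of -0.81. With each array centred on its median, 21 of 22 fell on DEX, against 16.9% of all loci. Against mock at 1 h, the median S phase gene stood at -0.21, -0.55 and -0.18 in the mock 4 h arrays and at -0.84, -0.91 and -0.93 in the DEX 4 h arrays. The median member stood at 0.34, 0.07 and 0.24 in mock and at 0.15, 0.23 and 0.32 in DEX. The DEX arrays lay below all mock arrays for the S phase genes, while the ranges overlapped for the members.

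**Figure D4:**
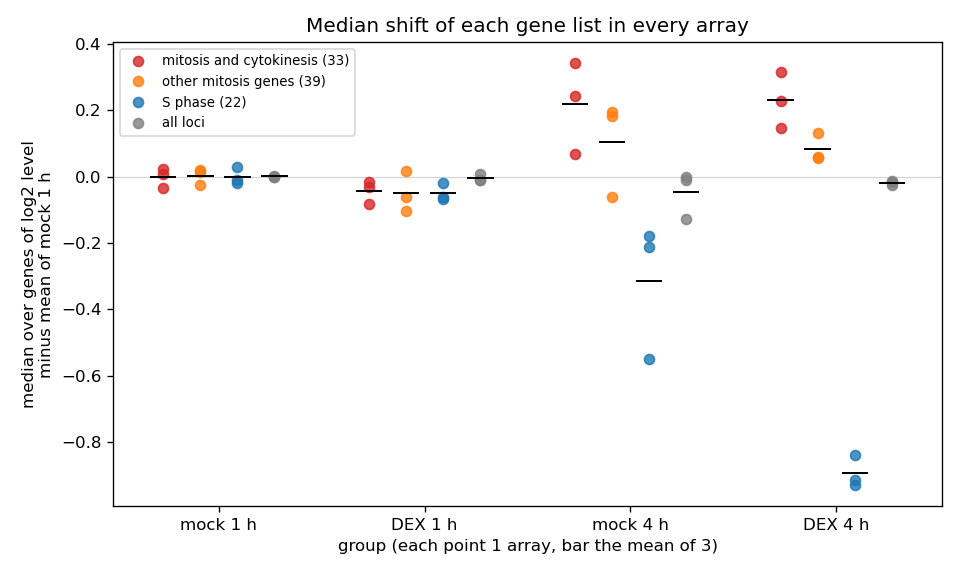
Median over genes of the log2 level minus the mean of the mock 1 h arrays, for the mitosis and cytokinesis genes (red, 33), the other mitosis genes (orange, 39), the S phase genes (blue, 22) and all loci (grey); each point is 1 array and each bar the mean of 3. At 4 h the red points overlap between mock and DEX, at 0.07 to 0.34, while the blue points do not.

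Within groups, members deviated together mostly in mock 4 h replicate 2, where all loci also had a median deviation of -0.10. Over the 12 arrays, with group means removed, the median Pearson correlation over 528 pairs of members was 0.22, that over 726 pairs of a member and an S phase gene was 0.31, and that over pairs of loci taken at intervals from the table was 0.07. The points share the arrays and their overall shifts. Without mock 4 h replicate 2 the medians were 0.06, 0.03 and 0.00.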

How the data were processed

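The authors deposited log2 expression values per probe set, made with RMA per the submitters' processing notes; RMA corrects background, normalizes between arrays and summarizes probes. Its version and the probe set definition are not given in the sources used here. The table has 21492 rows; 64 control sets were left out and 21428 loci were tested, without a filter on level. Symbols were checked against a reference gene table (TAIR10.1), used for names only, which held all 39 loci. Of the loci, 221 share their values with another locus, none of them a member. No pair of arrays was identical.

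Groups and replicate numbers come from the labels. limma 3.58.1 in R 4.3.3 was fitted with 1 mean per group over all 12 arrays (residual degrees of freedom 8, prior 5.85). Tests were two-sided, with Benjamini-Hochberg adjustment over 21428 loci in each of 5 comparisons: DEX against mock at 1 h and 4 h, the change of that response, and 4 h against 1 h on mock and on DEX. The precision rests on 3 arrays per group, not on a depth. The fit was tested on simulated data. Figures were drawn with matplotlib 3.10.9.

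The members, lists, tests and rules were chosen with earlier results of these data known. Any member could be named. Array values are given for members called in any comparison and for the 12 with the smallest p in the DEX comparisons, with CYCB1;1 and MYB3R4 added after their values were seen. Up to 6 genes of each further list were taken by their p at 4 h, and the list genes named for change over time, KNAT1 and SCR were picked after their values were seen. Results were recomputed with the replicate number as a block, with the compared arrays alone, after quantile normalization or centring, with weighted arrays, with a robust fit with a variance trend, above a mean log2 of 6, with identical loci kept once, at an adjusted p under 0.01, and without single arrays or single replicate numbers.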

Additional observations from a re-analysis of the deposited data

Results flagged for a closer look

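No member's DEX response was found to change from 1 h to 4 h, but those of 5 genes given beside them were, by the interaction test of limma. The response of CYCA3;1 was lower at 4 h than at 1 h by a log2 difference of -0.72 (adjusted p = 0.0261), that of CDT1A by -0.72 (adjusted p = 0.035) and that of PCNA1 by -0.62 (adjusted p = 0.0347). For WEE1, of the list of other mitotic genes, the difference was -0.74 (adjusted p = 0.0433). Of the S phase genes, 3 of 22 passed this test with all arrays, against 274 of 21428 loci. Without mock 4 h replicate 2 it was 10 of 22, against 412 of 21428 loci.

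KNAT1, a marker of the shoot meristem, differed between its responses by -1.34 (adjusted p = 0.00297). It rose on mock from 1 h to 4 h by 0.72 and fell on DEX by 0.63, and at 4 h it was lower in DEX than in mock by -1.33 on the log2 scale. Of the 6 meristem markers, it was the only one called in that comparison at 4 h, against 7.90% of all loci. At an unadjusted p under 0.05, 4 of the 6 passed, against 20.9% of all loci. Of these 4, 1 (CLV3) was higher in DEX and the others were lower. KNAT6 differed by -0.45 (adjusted p = 0.0894), STM by -0.40 (adjusted p = 0.114), CLV3 by 0.27 (adjusted p = 0.208), KNAT2 by -0.21 (adjusted p = 0.275) and WUS by -0.06 (adjusted p = 0.754). The part of meristem tissue in the members' values was not tested.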

How the results depend on the processing

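Of the 33 members, DEX at 4 h called 0 at an adjusted p under 0.01, 2 with renewed quantile normalization (1 higher, 1 lower), 3 with centring (1 higher, 2 lower) and 0 to 1 with an array or replicate number left out. Its median was -0.085 with quantile normalization, -0.12 with centring and -0.075 to 0.074 with arrays left out. The median change of the response was -0.011 and -0.033 under the same scalings and 0.0048 to 0.12 with arrays left out. From 1 h to 4 h, mock gave 4 calls at an adjusted p under 0.01, 15 with quantile normalization, 15 with array weights and 0 to 13 with arrays or a number left out, with medians of 0.14 to 0.29. DEX gave 9 at an adjusted p under 0.01 and 4 to 17 with arrays or a number left out, and its median was 0.16 with centring. Over all 21428 loci, DEX at 4 h called 1693 in the main fit, 2079 with quantile normalization and 2169 with centring. Mock over time called 1990 in the main fit and 2406 with quantile normalization. Calls over all loci at the stricter threshold, with array weights and without replicate numbers are not given here. AUR1 turned to -0.025 for DEX at 4 h without replicate 2, and ranged to 0.28. The causes were not tested, beyond fewer arrays where some were left out. Of 23 calls of members, 20 were lost in at least 1 setting. No call appeared at 1 h.

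With a replicate block the members gave 1 call for DEX at 4 h, 8 on mock and 14 on DEX, as without it. Deviations of arrays with the same number correlated between -0.10 and 0.19, with 3 of 12 pairs over 0.1. Those 3 (0.193, 0.187 and 0.102) were DEX against mock at the same time, while the highest across times was 0.07. The numbers were not taken to pair the samples, though these values cannot settle a pairing within a time. Promoter windows were not examined, so that alternative was not run. Arrays give no depth; CYCA2;1 lay near background.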
